A study of Mus musculus with 4 samples.

Results

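Angptl4, lipoprotein lipase and the genes through which cells take up and bind fatty acids were followed in C2C12 myoblasts, a mouse satellite cell line, exposed to the saturated fatty acid palmitate. The 10 genes were Angptl4, Lpl, Lmf1, Cd36, Slc27a1, Slc27a4, Fabp3, Fabp4, Fabp5 and Vldlr. They were chosen by name from the pathway and found on the arrays through their RefSeq accessions, where they held 14 of 39429 gene probes. Of these, 12 probes of 9 genes could be tested, among 24169 tested probes of all kinds that included 13712 named genes.

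Lipoprotein lipase splits the triglycerides of circulating lipoproteins into fatty acids, which muscle and fat cells then take up. Lmf1 matures the enzyme in the endoplasmic reticulum, and the secreted protein Angptl4 inhibits it. Fatty acids activate the nuclear receptors of the PPAR family, of which Angptl4 is a well-known target gene in muscle and in other tissues.

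Each of 4 two-colour arrays compared 1 control culture (Cy3) with 1 culture grown in palmitate at 0.1 mmol/l over 48 h (Cy5), and both came from the 3rd day of proliferation. According to the treatment description, both media held 5% FBS with equal ethanol and fatty acid-free albumin, whereas the source name of the control reads 10% HS. The labels call the 4 arrays biological replicates. C2C12 is a single established line. The dyes were never exchanged, so that a dye effect and a palmitate effect on a single gene cannot be told apart, and all 4 arrays lay on the same slide.

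The share of probes well above background lay between 57.6 and 64.0% in the control channel and between 61.9 and 70.7% in the palmitate channel. Replicate 1 stood apart: its log2 ratios correlated with the mean of the other arrays at -0.111 over 24055 probes, while replicates 2, 3 and 4 correlated with each other at 0.719 to 0.853. Probes share the array, so these correlations only describe the arrays. For this reason values without replicate 1 are given beside many of the results. All 12 myoblast markers on the array, Myod1 and Des among them, were above background on every array in at least 1 channel. The adipocyte genes Adipoq, Retn, Cfd, Lep and Plin1 were not well above background on any array. Of the 14 adipocyte markers on the array, the other 9 were above background on every array in at least 1 channel. For Cidec, Lipe and Adrb3 this was the palmitate channel only.

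No probe of the array passed an adjusted p of 0.05 with a 1.6-fold difference in limma, while at an unadjusted p under 0.05 the palmitate signal was above control for 3362 probes and below it for 2979. By the methods' t-test, which ignores the pairing, 4 probes were above and 3 below control after the same adjustment. Among the 9 tested genes, an unadjusted p under 0.05 was reached by 2 with a higher level (Angptl4 and Lpl) and by 0 with a lower level, against 14% and 14.1% of all tested genes. The ratio was above 0 on all 4 arrays for 3 of the 9 genes (Angptl4, Lpl and Vldlr), against 16.4% of all tested genes, and for 0 it was below 0 on all arrays, against 16.2%. In 2 of the 9 (Angptl4 and Lpl) the 4 palmitate levels lay above all 4 control levels, against 6.08% of all tested genes, and in 0 they lay below, against 8.16%. The median log2 ratio of the 9 genes was 0.088, and that of all tested genes was 0.00493.

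**Figure D1:**
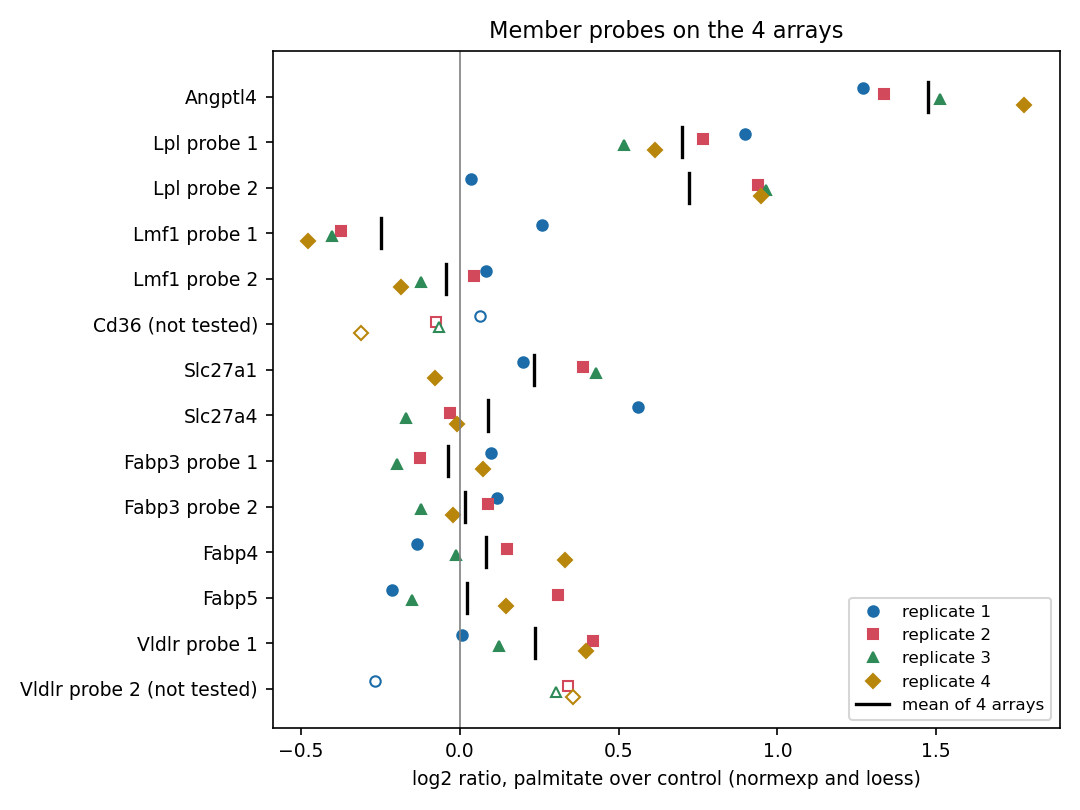
Log2 ratio of palmitate over control (horizontal axis) of each of the 14 probes on each of the 4 arrays after normexp and loess; symbols are arrays, black bars are means, and open symbols are probes that were not tested. Angptl4 and the first Lpl probe lie to the right of 0 on every array, and the 2nd Lpl probe lies near 0 on replicate 1 only. The first Vldlr probe lies above 0 on every array, on replicate 1 barely so. Each remaining probe has arrays on both sides of 0.

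Angptl4, the secreted inhibitor of lipoprotein lipase, had the highest ratio of the 9 genes. Its log2 ratios were 1.27, 1.33, 1.51 and 1.78 in replicates 1 to 4. In normalized log2 signal, the control cultures lay at 14.76, 14.74, 14.64 and 14.72 and the palmitate cultures at 16.03, 16.08, 16.15 and 16.50. The 2 groups did not overlap, and the lowest palmitate level was more than 1 log2 unit above the highest control level. The mean log2 ratio was 1.47 ± 0.23 (SD, n = 4 arrays), a 2.78-fold difference with a 95% confidence interval of 2.31 to 3.33. In limma the p was 6.55e-06 and the adjusted p was 0.0792, which missed the threshold of 0.05. An exact sign-flip test over 4 arrays cannot go below a two-sided p of 0.125.

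The Angptl4 transcript was already abundant on its own probe in control cultures, with spot signals 339 to 606 times the local background, and in palmitate cultures the signals reached 1927 to 3365 times the local background. None of its spots was marked as saturated. Of all tested probes, 95.8% were dimmer. For probes this bright the dye correction was large: the log2 ratios before loess were 1.85, 2.63, 3.60 and 2.66, and loess subtracted 0.58, 1.30, 2.09 and 0.88.

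Whether Angptl4 passed the adjusted p depended on the processing. It passed in the deposited value table (adjusted p = 0.0399 in limma), with array weights (0.00888), without the pairing of cultures on an array, that is with no replicate block (0.00480), and without replicate 1 (0.000387). The threshold was missed in limma when replicate 2, 3 or 4 was left out (0.430, 0.275 and 0.308) or with a robust variance trend (0.192). Every fit that left out 1 array held fewer arrays, also the one without replicate 1. The mean log2 ratio itself stayed between 1.37 and 1.54 under every alternative that kept an intensity-dependent dye correction. Without such a correction it was larger, at 2.22 with median centring and 2.69 with no dye normalization, where the median of all probes moved to 0.38 and 0.85. Relative to all tested genes, Angptl4 ranked 2 of 13712 by mean ratio, behind Car6, and it ranked 24 in the deposited value table.

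**Figure D2:**
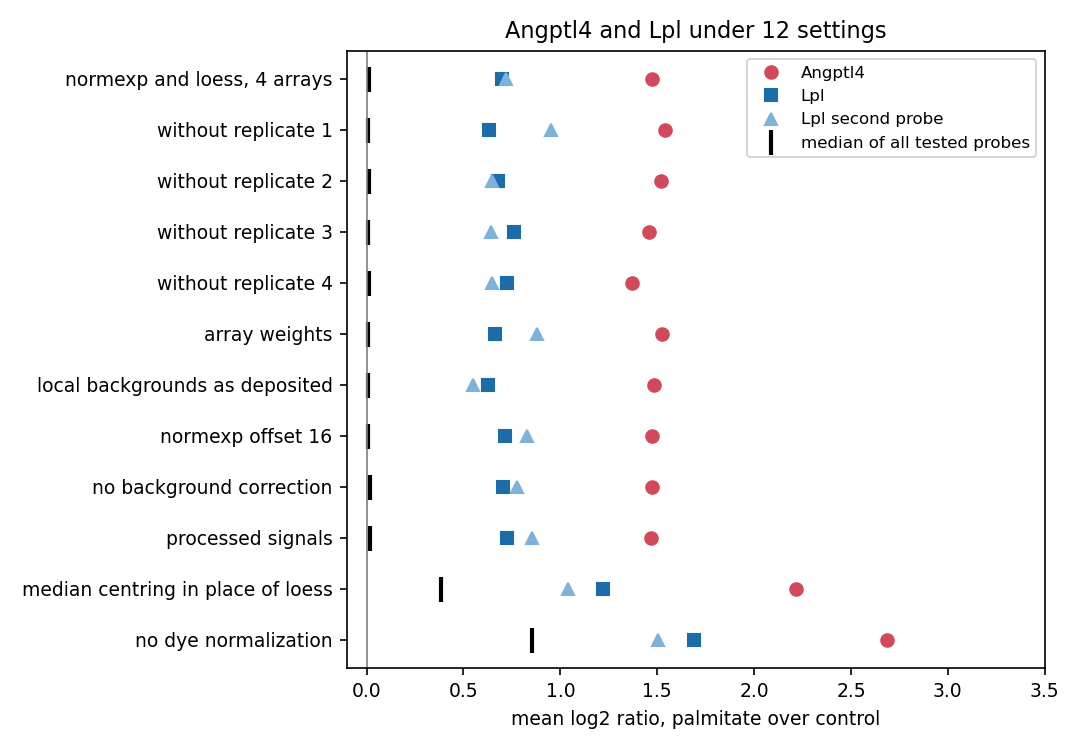
Mean log2 ratio of palmitate over control (horizontal axis) of Angptl4 and both Lpl probes under 12 settings (rows), with the median of all tested probes as a black bar. Angptl4 stays between 1.37 and 1.54 down to the processed signals, while in the 2 lowest rows both genes and the median of all probes move to the right.

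Lpl encodes lipoprotein lipase itself and is measured by 2 probes. On the brighter one the log2 ratios were 0.90, 0.77, 0.52 and 0.62. The control levels were 9.43, 9.69, 9.54 and 9.56 in normalized log2 signal, and the palmitate levels were 10.33, 10.46, 10.05 and 10.18. The palmitate cultures were higher on every array, and the groups did not overlap. The mean log2 ratio was 0.70 ± 0.17 (SD, n = 4), or 1.62-fold (95% confidence interval 1.38 to 1.91), with an adjusted p of 0.0916 in limma. By mean ratio it ranked 143 of 13712 genes.

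The 2nd Lpl probe, which is dimmer, read 0.036, 0.94, 0.97 and 0.95. Its palmitate level was 7.57 in replicate 1 and 8.61 to 8.64 in the other replicates, whereas the control levels lay between 7.53 and 7.70. The probes therefore differed on replicate 1, where the brighter one had its highest ratio and the dimmer one its lowest. The mean of the dimmer probe was 0.72 ± 0.46 (SD, n = 4; adjusted p = 0.1000 in limma), and the mean over replicates 2 to 4 was 0.95 ± 0.014 (SD, n = 3). Without replicate 1 both Lpl probes passed the adjusted p (0.00423 for the brighter and 0.00088 for the dimmer probe in limma), and only the dimmer one was then also past 1.6-fold. With the local backgrounds as deposited the means were 0.63 and 0.55, since both probes then read lower on replicate 4 (0.32 and 0.25).

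Lmf1, the maturation factor of the lipase, had a negative mean ratio that rested on replicates 2 to 4. Its brighter probe read 0.26 in replicate 1 and -0.38, -0.40 and -0.48 in replicates 2 to 4. The mean was -0.25 ± 0.34 (SD, n = 4; adjusted p = 0.299 in limma), with control levels of 11.75 to 12.02 and palmitate levels of 11.27 to 12.01 that overlapped. Over replicates 2 to 4 it was -0.42 ± 0.052 (SD, n = 3), and without replicate 1 the adjusted p was 0.0124 in limma at a difference below 1.6-fold. With median centring the mean was 0.34 and with no dye normalization 0.81, both of opposite sign and both below the shift of all probes. The 2nd, dimmer Lmf1 probe was near 0 (0.081, 0.046, -0.12 and -0.18), and its mean of -0.045 ± 0.13 (SD, n = 4) did not separate the groups (adjusted p = 0.770).

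**Figure D3:**
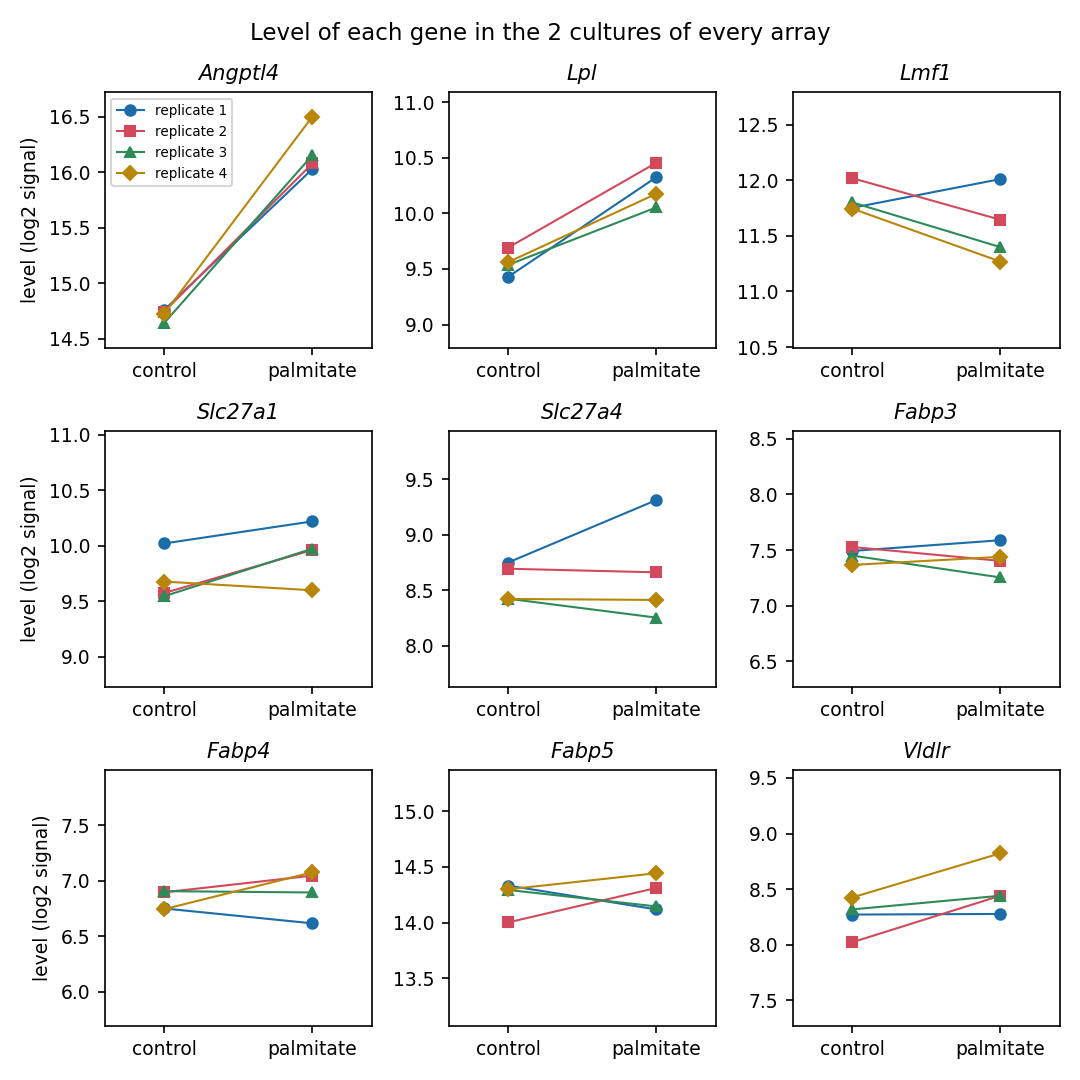
Level of the brightest probe of each of the 9 tested genes (normalized log2 signal, vertical axis; each panel spans the same number of log2 units from its own start) in the control and the palmitate culture of every array, with a line joining the 2 cultures of an array. For Angptl4 and Lpl every line goes up and the lowest palmitate point lies above the highest control point; replicate 1 runs against the other lines for Lmf1, and lies above them for Slc27a4.

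Cd36, the membrane glycoprotein that takes up long-chain fatty acids in mature muscle, stayed at background in control and palmitate cultures alike on all 4 arrays. Its spot signals were 1.71 to 2.21 times the local background in control cultures and 1.25 to 1.58 times in palmitate cultures, so no fold difference is given. This limits what can be said of the gene, since a change below background would not be seen.

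Slc27a1 and Slc27a4 encode the fatty acid transport proteins FATP1 and FATP4, which couple uptake to activation by coenzyme A. For Slc27a1 the log2 ratios were 0.20, 0.39, 0.43 and -0.078, with a mean of 0.23 ± 0.23 (SD, n = 4; adjusted p = 0.232 in limma). Palmitate cultures were higher on 3 of 4 arrays, but the control levels (9.55 to 10.02) and the palmitate levels (9.60 to 10.22) overlapped. For Slc27a4 the values were 0.56 in replicate 1 and -0.032, -0.17 and -0.0087 in the others, a mean of 0.088 ± 0.32 (SD, n = 4; adjusted p = 0.704). The positive mean of Slc27a4 came from replicate 1, and without it the mean was -0.0705. The 95% confidence intervals of the log2 ratio were -0.032 to 0.50 for Slc27a1 and -0.24 to 0.41 for Slc27a4.

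The fatty acid-binding proteins carry fatty acids within the cytoplasm, Fabp3 in heart and skeletal muscle, Fabp4 in adipocytes and macrophages, and Fabp5 in epidermis and several other tissues. Fabp3 read 0.097, -0.13, -0.20 and 0.073 on its brighter probe and 0.12, 0.090, -0.12 and -0.022 on the other. Fabp4 read -0.13, 0.15, -0.012 and 0.33, and its spots were only 2.14 to 3.62 times the local background. Fabp5 read -0.21, 0.31, -0.15 and 0.15 at spot signals of 269 to 941 times the local background.

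None of the 3 binding proteins separated the groups. The mean log2 ratios were -0.038 ± 0.15 for Fabp3, 0.084 ± 0.20 for Fabp4 and 0.023 ± 0.25 for Fabp5 (SD, n = 4 each), and each was higher on 2 of 4 arrays. The adjusted p values in limma were 0.814, 0.631 and 0.915. The 95% confidence intervals bound the differences at a log2 ratio of -0.26 to 0.18 for Fabp3, -0.17 to 0.33 for Fabp4 and -0.25 to 0.30 for Fabp5. All 3 intervals lie below the difference measured for Lpl. The dim signal limits Fabp4 in particular, because an offset of 50 added to both channels pulls low ratios towards 0; in the processed signals its 4 values spread from -0.49 to 0.81.

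Vldlr, the receptor that binds triglyceride-rich lipoproteins next to the lipase, read 0.0055, 0.42, 0.12 and 0.40. All 4 ratios were above 0, that of replicate 1 barely so, while the control levels (8.02 to 8.42) and the palmitate levels (8.28 to 8.82) overlapped. The mean was 0.24 ± 0.20 (SD, n = 4; adjusted p = 0.209 in limma). Without replicate 1 it was 0.31 with an adjusted p of 0.0506, and with array weights the adjusted p was 0.0436. The 2nd Vldlr probe was well above background on 0 control arrays and 3 palmitate arrays and was not tested; its ratios were -0.27 in replicate 1, where the palmitate signal was 1.18 times the local background, and 0.34, 0.30 and 0.36 in the others. Since its palmitate signal was not above background on every array, no fold difference is given for this probe.

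Related genes were counted in the same way, outside the 10. The genes named from each list were picked for its lowest p values in these same data. Their p values are therefore no separate support. Among all tested genes an unadjusted p under 0.05 was reached by 14% with a higher and 14.1% with a lower level, by 22.9% and 20.5% without replicate 1, and by 5.7 to 8.28% and 6.16 to 10.1% without 1 of the other arrays.

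Of 17 tested genes that regulate the lipase, 3 had a lower level at an unadjusted p under 0.05 and 0 a higher one (17.6% and 0% of the list), and their median log2 ratio was -0.030. Without replicate 1 the counts were 5 and 2, and without replicate 3 or 4 they were 1 and 0. The 3 were Sdc4, a heparan sulphate proteoglycan of the cell surface (-0.47 ± 0.16), Furin, a protease that cleaves the lipase and its inhibitors (-0.34 ± 0.22), and Lmf2, a relative of Lmf1 (-0.42 ± 0.39; SD, n = 4 each). Their adjusted p values in limma were 0.0916, 0.132 and 0.162, and without replicate 1 they were 0.0130, 0.0264 and 0.00967. With no dye normalization, and with median centring, all 3 means were above 0, as was the shift of all probes. Gpihbp1, which anchors the lipase in capillaries, read 0.27, -0.39, -0.32 and -0.39 (chosen after its values were seen), so replicate 1 again had the opposite sign.

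Within the angiopoietin-like family, 6 tested relatives of Angptl4 had a median log2 ratio of 0.12, and 0 of them were higher or lower at an unadjusted p under 0.05 (without replicate 1, 1 was lower). The relative with the lowest p was Angpt1, a ligand of the receptor Tek, at 0.22 ± 0.14 (SD, n = 4; adjusted p = 0.193 in limma), followed by Angptl6 at 0.15 ± 0.13 and Angpt2 at 0.094 ± 0.086.

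Of 15 other tested genes of fatty acid uptake and binding, an unadjusted p under 0.05 was found for 2 with a higher and 3 with a lower level, with a median log2 ratio of 0.016. These are 13.3% and 20% of the list, and without replicate 2 the counts were 0 and 1. Scarb1, a scavenger receptor for lipoproteins, was lower on every array, with a mean of -0.62 ± 0.36 (SD, n = 4; adjusted p = 0.0978 in limma). Its dimmer probe had a mean of -0.43 ± 0.42 (SD, n = 4). Mfsd2a, a lysolipid transporter, was also lower on every array (-0.34 ± 0.18, adjusted p = 0.115). Cavin1, a coat protein of caveolae, read -0.028 in replicate 1 and 0.53 to 1.08 in the others (0.60 ± 0.47, adjusted p = 0.121), but its dimmer probe went the other way, with 0.18 in replicate 1 and -0.74, -0.42 and -0.83 in the others (-0.45 ± 0.46, adjusted p = 0.172). The mean over both Cavin1 probes was 0.074, so the arrays give no direction for this gene. Without replicate 1 the adjusted p was 0.00299 for Scarb1, 0.0698 for Mfsd2a and 0.00439 for the brighter Cavin1 probe in limma. With no dye normalization the means of Scarb1 and Mfsd2a were above 0, as was that of Mfsd2a with median centring.

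Among 19 other tested genes of the LDL receptor family, 2 had a higher and 2 a lower level by the same limit (10.5% of the list each), and the median was 0.012. Both counts were 4 without replicate 1, and without replicate 2 or 3 they were 1 and 2. Lrp6 and Lrp1, which serve Wnt signalling and endocytosis, read -0.64 ± 0.19 and -0.49 ± 0.27, and Ldlrad3 read 0.42 ± 0.24 (SD, n = 4 each). The dimmer Lrp6 probe was near 0, at 0.035 ± 0.11 (SD, n = 4). The adjusted p values were 0.0916, 0.101 and 0.107 in limma, and 0.00283, 0.0185 and 0.0412 without replicate 1. With no dye normalization the means of Lrp6 and Lrp1 were above 0, as was that of Lrp1 with median centring.

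Fatty acid-responsive target genes of PPAR came next. Apart from the 10 genes above, 31 were tested, of which 10 had a higher level and 1 a lower level at an unadjusted p under 0.05, or 32.3% and 3.23% of the list, with a median log2 ratio of 0.20. Without replicate 1 the counts were 13 and 2, without replicate 2 they were 6 and 0, without replicate 3 6 and 1, and without replicate 4 8 and 0. The per-array medians were 0.14, 0.18, 0.14 and 0.19, so replicate 1 lay close to the others here. Acot2, Cyp4a14, Fgf21 and Cidec were above background on every array only in the palmitate channel. All had positive mean ratios, and Acot2 was among the 10 higher genes. With members of the 10 genes counted in, 12 of 37 were higher, and 9 of 33 when both channels had to be above background. Cpt1a, which admits long-chain fatty acids to mitochondria for oxidation, read 1.35, 1.46, 1.24 and 1.25, with a mean of 1.33 ± 0.10 (SD, n = 4). Its adjusted p of 0.0622 in limma was the lowest of all probes, and as for Angptl4 the call depended on the processing. Among other settings it passed in the deposited value table (0.0292), with array weights (0.00888), with no replicate block (0.00480) and without replicate 1 (0.000385), but not without replicate 2, 3 or 4 (0.430, 0.275 and 0.308). The dimmer Cpt1a probe read 0.80 ± 0.070 (SD, n = 4; adjusted p = 0.0916 in limma). Plin4, a lipid droplet coat protein, had 0.56 ± 0.21 and Acadl, a dehydrogenase of fatty acid oxidation, 0.92 ± 0.48 (both with adjusted p = 0.0916 in limma), and Acadl read 0.20 in replicate 1 and 1.11 to 1.22 in the others. Without replicate 1 their adjusted p values were 0.00791 and 0.000502.

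**Figure D4:**
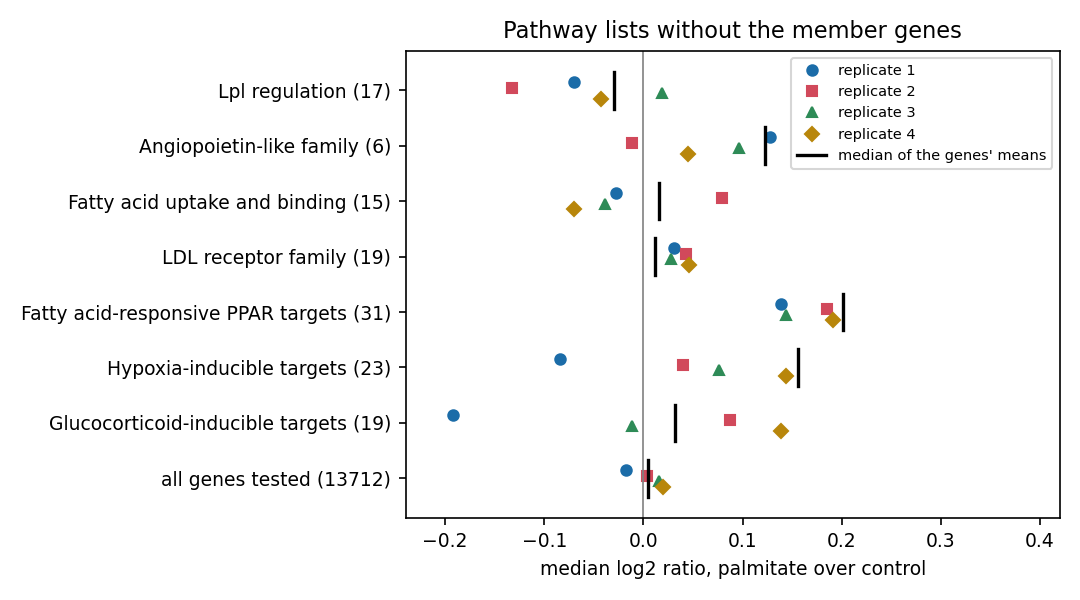
Median log2 ratio of palmitate over control (horizontal axis) in lists of related genes without the 10 genes described, with the number of tested genes in parentheses; symbols are the medians on each array and black bars the median of the genes' means. The PPAR targets lie at 0.14 to 0.19 on the 4 arrays, all tested genes lie near 0, and the medians of 5 of the 7 lists fall on both sides of 0.

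Angptl4 is also known to be induced by hypoxia and by glucocorticoids, and both groups of targets were compared in the same way. Of 23 other hypoxia-inducible genes, the same limit was reached by 4 with a higher and 3 with a lower level (17.4% and 13% of the list; median 0.16). Without replicate 1 the counts were 8 and 3, and without replicate 4 they were 1 and 2. Ankrd37 (-0.44 ± 0.14) and Higd1a (-0.45 ± 0.27) were lower on 4 of 4 arrays and Adm, a vasodilator peptide, was higher on 4 of 4 (0.32 ± 0.041; SD, n = 4 each), with adjusted p values of 0.0916, 0.108 and 0.1000 in limma. Of 19 other glucocorticoid-inducible genes, it was reached by 3 in each direction (15.8% of the list each; median 0.032), and by 5 and 3 without replicate 1. Glul, glutamine synthetase, was higher on 4 of 4 arrays (0.69 ± 0.20, adjusted p = 0.0916), and the metallothionein Mt2 (-0.97 ± 0.61, 0.0964) and the cell cycle inhibitor Cdkn1c (-0.43 ± 0.26, 0.108) were lower on 4 of 4. All 6, picked for their low p in these data, passed the adjusted p without replicate 1 (0.00185 to 0.0408 in limma). In that setting 834 of 24165 tested probes were called higher and 1006 lower. With no dye normalization the means of Ankrd37, Higd1a, Mt2 and Cdkn1c were above 0, and those of Ankrd37 and Higd1a also with median centring. The lists share some genes, and the differences between lists were not tested.

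The genes whose 4 ratios lay nearest to those of Angptl4, by root mean square difference over the arrays in log2 units, were Cpt1a (0.307), Nfkbiz (0.437), Car6 (0.472), Clec4d (0.536) and Cyp26b1 (0.571). Nfkbiz, a regulator of NF-kappaB, had a mean log2 ratio of 1.20 ± 0.40, and the secreted carbonic anhydrase Car6 had 1.57 ± 0.46 (SD, n = 4 each). The adjusted p was 0.0916 in limma for each of these genes other than Cpt1a, and without replicate 1 it was 0.000385 to 0.00270 for the 5. These 5 were chosen for ratios like those of Angptl4 on the same arrays, so low p values follow from the choice. The ribosomal protein gene Rpl13a, the reference gene of the study, stood at -0.039 ± 0.12 (SD, n = 4), with replicates on both sides of 0, and its dimmer probe at 0.11 ± 0.15. Its sign changed with the processing, to 0.75 with median centring and 1.22 with no dye normalization.

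Markers of other cell types were set beside these values, since Lpl and Fabp4 are also adipocyte genes. Of 14 adipocyte markers 9 were tested, and their summed level lay at 11.55 to 11.61 in control and 11.65 to 11.75 in palmitate cultures (log2), while the 5 markers Adipoq, Retn, Cfd, Lep and Plin1 were at background in both. The adipocyte sums did not overlap and were higher with palmitate. Of the 9, Cidec, Lipe and Adrb3 were above background on every array only in the palmitate channel. They entered the sum through that channel alone, so the set was not chosen evenly between the groups. The median log2 ratio of the 9 was only 0.014, with 6 genes above 0 and 3 below. Levels of single genes were separated in this direction in 6.08% of all tested genes, but that share does not apply to a sum over genes. Pparg, the nuclear receptor of adipocyte differentiation, was the only tested adipocyte marker at an unadjusted p under 0.05, with 0.38, 0.50, 0.18 and 0.23 on the 4 arrays (0.32 ± 0.15, SD, n = 4; adjusted p = 0.114 in limma). Of 16 markers of differentiated muscle 13 were tested, and 4 had a higher and 0 a lower level at an unadjusted p under 0.05 in limma. Over all tested genes the shares were 14% and 14.1%. The median log2 ratio of the 13 was 0.19, beside 0.20 for the PPAR targets outside the 10 genes. Its per-array medians were 0.16, 0.13, 0.063 and 0.42, all above 0. The summed levels overlapped (13.97 to 14.15 and 13.91 to 14.23). Endothelial markers (4 of 11 tested) and macrophage markers (6 of 10 tested) had summed levels that overlapped between the groups as well. The 4 endothelial means were all below 0 (median -0.25), with per-array medians of 0.26, -0.44, -0.33 and -0.41. Of these only Eng was at an unadjusted p under 0.05 (-0.30 ± 0.12, SD, n = 4, adjusted p = 0.116 in limma). The macrophage median was 0.12, with 4 genes above 0 and 2 below. The part of these markers in the Lpl and Angptl4 values was not tested. In a culture sampled as a whole, more cells that express a gene and more RNA per cell cannot be told apart.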

How the data were processed

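RNA of 4 control and 4 palmitate-treated cultures was measured on 4 two-colour Agilent arrays (design 026655), read with Agilent Feature Extraction 10.7.3.1 per the labels. The median spot and background intensity values deposited by the authors are uncorrected, and their processed signals are background-subtracted and dye-normalized. The value table deposited by the authors holds log2 ratios, which matched log2 of processed palmitate over control signals within 3e-06 for 39030 probes with a single spot. The ratio column of the scanner files, deposited by the authors on a log10 scale, served only for that check.

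The limma package (3.58.1, with statmod 1.5.0 under R 4.3.3) was used for normexp background correction, with an offset of 50, and for loess within arrays. On replicate 4, 10 palmitate and 6 control spots had a local background above 5 times the median of the array (up to 161990 against a median of 40), and these few spots set its normexp fit, with a background mean of -1101 in the palmitate channel against -16.1 to -9.74 on the other arrays. Their background was replaced by the median of the array. This step was chosen after seeing the data and after the results without it were known; values with the local backgrounds as deposited are given as an alternative.

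Control and outlier spots were left out, and replicate spots were averaged per probe. A probe was tested if 1 of its channels or both exceeded background clearly on each of the 4 arrays (mean log2 ratio against 0, Benjamini-Hochberg over all tested probes, called at an adjusted p of 0.05 and 1.6-fold). Levels are log2 signals after Aquantile scaling. RefSeq accessions named 26055 probes and left 13374 unnamed, and a gene is represented by its brightest tested probe. The genes named beside the 10 are up to 3 per list with the lowest p, the 5 nearest to Angptl4, and Rpl13a; any other was chosen after its values were seen. The 10 genes and all lists were chosen with earlier results of these data known. The number of arrays limits the precision. The alternatives changed the background, dye correction, filters, variance model, array weights, pairing, test, choice of probe, source of values and replicates. The pipeline was tested on simulated data, where it called 51% of probes with a log2 change of 1 and 88% with a change of 2. It also called 3 of 23855 unchanged probes. The noise was drawn independently for each array, so no simulated array stood apart as replicate 1 did.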

Additional observations from a re-analysis of the deposited data

Results flagged for a closer look

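In 6 of 70 groups of 4 values examined, 1 array lay far from the other 3 by Dixon's criterion, and chance alone gives about 5% of groups. In 3 of them it was the log2 ratio of replicate 1: the 2nd Lpl probe at 0.036 against 0.94 to 0.97, Lmf1 at 0.26 against -0.48 to -0.38, and Acadl at 0.20 against 1.11 to 1.22. The palmitate level of the 2nd Lpl probe on replicate 1 (7.57 against 8.61 to 8.64) is the same reading in another scale. For Car6, replicate 3 gave 0.88 where the other arrays gave 1.77 to 1.82. The control level of Fabp5 on replicate 2 was 14.00 against 14.29 to 14.33, and its ratio there was the highest of the 4.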

How the results depend on the processing

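Angptl4 and both Lpl probes kept a positive mean ratio under every alternative run. Angptl4 passed the adjusted p at a mean log2 ratio of 1.47 with 1 probe per gene, the mean over the probes of a gene, the limit on the coefficient of variation, no replicate block, the methods' t-test, the processed signals and the deposited value table, at 1.525 with array weights, at 2.22 with median centring and at 2.69 with no dye normalization. It did not pass with other filters on dim probes, an offset of 16, no background correction, a robust variance trend, or the local backgrounds as deposited (1.48, adjusted p = 0.108 in limma), an alternative added after seeing the data. Leaving out 1 array in turn gave 1.37 to 1.54, and it passed only without replicate 1. Of the 9 tested genes, 1 was called in each setting in which Angptl4 passed, other than median centring (4) and no dye normalization (7); leaving out 1 array gave 0 to 1.

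Over all probes, in place of 0, the counts higher and lower were 682 and 887 with array weights, 5627 and 64 with median centring, 14270 and 48 with no dye normalization, 11 and 4 with no replicate block and 4 and 3 with the methods' t-test. Higher probes numbered 2 with 1 probe per gene or the mean over probes, 3 with the limit on variation and 13 with the processed signals or the value table, with 0 lower in each. Leaving out 1 array gave 0 to 834 higher and 0 to 1006 lower, with calls only without replicate 1. The samples are paired by their array, since each held 1 culture of each kind; the block changed no other call among the 9 genes.

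Signs turned in these cases. With median centring the means were 0.075 for Ankrd37, 0.11 for Fabp3, 0.26 for Furin, 0.17 for Higd1a, 0.34 and 0.33 for the Lmf1 probes, 0.17 for Lmf2, 0.18 for Lrp1, 0.21 for Mfsd2a, 0.75 for Rpl13a and 0.088 for Sdc4. With no dye normalization they were 0.54 for Ankrd37, 0.24 for Cdkn1c, 0.58 for Fabp3, 0.73 for Furin, 0.63 for Higd1a, 0.81 and 0.80 for Lmf1, 0.64 for Lmf2, 0.65 for Lrp1, 0.41 for Lrp6, 0.67 for Mfsd2a, 0.21 for Mt2, 1.22 for Rpl13a, 0.44 for Scarb1 and 0.56 for Sdc4. The median of all probes was 0.38 and 0.85 in these settings. The 2nd Fabp3 probe turned to -0.068 with the processed signals or the value table and -0.042 with no background correction, Slc27a4 to -0.013 with array weights, and Rpl13a to 0.035 with the mean over probes. Leaving out 1 array in turn gave ranges across 0 for Fabp3 (-0.083 to 0.015) and its 2nd probe (-0.018 to 0.061), Fabp5 (-0.073 to 0.102), the 2nd Lmf1 probe (-0.087 to 0.0015), Rpl13a (-0.091 to 0.0041) and Slc27a4 (-0.0705 to 0.17). The cause was not tested.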
